A study of Mus musculus with 6 samples.

Results

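The BCL2 family decides whether the outer mitochondrial membrane is opened in apoptosis. Pro-survival members such as MCL1, BCL-XL and BCL2 hold the pore formers BAX and BAK in check, and BH3-only proteins such as BIM and BID relieve that restraint or activate the pore formers directly. In the mouse, loss of Mcl1 is lethal around implantation, and Bcl2l10 is a relative known for its abundance in oocytes. The 10 genes described here were taken by symbol from the 29139 genes of the count table: Mcl1, Bcl2, Bcl2l1, Bcl2l2 and Bcl2l10 on the pro-survival side, and Bcl2l11, Bid, Bax, Bak1 and Bok on the pro-death side. Each symbol matched 1 Ensembl identifier. Whether mouse Bcl2l10 protects or kills cells has been reported both ways, and it is grouped by sequence family only.

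The libraries came from ICR mouse embryos at the 2-cell stage, cultured in the embryo medium KSOM with 75 µM MS-444 (3 libraries) or with 0.1% of its solvent DMSO (3 libraries). MS-444 has been described as an inhibitor of HuR, the product of Elavl1, an RNA-binding protein that attaches to AU-rich and U-rich stretches of mRNA. Per the labels, 16 embryos were lysed, samples were pooled before the cDNA was purified, and full-length cDNA was amplified by PCR. The sources used here state neither the culture time nor whether the replicates are separate cultures. The p-values therefore cover the spread among these libraries, part or all of which may be technical. Totals were 2637763 to 3772141 counts in the MS-444 libraries and 2669918 to 4695866 in the DMSO libraries.

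The labelled stage was checked against its markers. The summed level of 8 transcripts typical of 2-cell embryos, among them Zscan4d and Zfp352, was 1311 to 1709 CPM (counts relative to the size of each library after TMM adjustment) with MS-444 and 1214 to 1931 CPM with DMSO. Of these 8 transcripts 0 were called higher and 1 lower. That was Zscan4f, one of a group of near-identical genes among which reads can be split, with 17.2, 15.2 and 13.6 CPM with MS-444 and 36.4, 17.0 and 74.0 CPM with DMSO (log2 -1.47, edgeR adjusted p = 0.044, groups overlapping). Tcstv3 was higher in each MS-444 library than in each DMSO library but did not pass (log2 0.93, adjusted p = 0.074). Mitochondrial transcripts took 4.44% to 5.27% of the counts with MS-444 and 3.22% to 3.86% with DMSO. Sums of markers of other cells were low: 4.48 to 5.10 CPM with MS-444 and 7.20 to 8.98 CPM with DMSO for cumulus and granulosa cells, 1.10 to 2.18 and 0 to 1.28 CPM for the oviduct, 0.485 to 1.79 and 0.400 to 1.61 CPM for fibroblasts, 2.99 to 3.66 and 0 to 5.29 CPM for sperm, and 9.89 to 25.1 and 2.04 to 7.37 CPM for blood. Of the 6 cumulus and granulosa markers in the table, 1 to 3 had 0 counts in each library, and of the 4 oviduct markers 1 to 4. The blood sum was almost all Hba-a1, a haemoglobin gene, while the leukocyte marker Ptprc had 1 count in MS-444 replicate 2 and 0 in the other libraries. Hba-a1 was called higher with MS-444 (log2 1.93, edgeR adjusted p = 0.026), and in 12 of 16 alternative settings. With 8, 32 and 8 counts in the DMSO libraries, it passed the filter on low counts only through the MS-444 group. Its call is therefore no independent sign of a difference. The haemoglobin genes Hbb-bs and Hbb-bt were not found in the count table. The part of these differences in the results below was not tested.

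The 11864 genes that passed the filter on low counts were all fitted together in edgeR, and a gene was called where the adjusted p of its two-sided quasi-likelihood test was below 0.05. Of the 10 family members 5 passed the filter: Mcl1, Bcl2l1, Bcl2l10, Bcl2l11 and Bid. Mcl1 and Bcl2l11 were higher with MS-444 and Bcl2l10 was lower, while Bcl2l1 and Bid did not pass the test. Over all genes tested 25.5% were called, 14.4% as higher and 11.1% as lower, and the 2 groups of libraries did not overlap for 43.9% of them. The number of called genes, 3028 in all, depended on single libraries, with 1171 when MS-444 replicate 3 was left out, 1211 for MS-444 replicate 2, 1774 for DMSO replicate 3 and 2006 for DMSO replicate 2. DMSO replicate 1 was the DMSO library nearest to the mean of the MS-444 libraries for 49.6% of the genes tested, and for 4 of the 5 tested members (all but Bcl2l1).

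**Figure D1:**
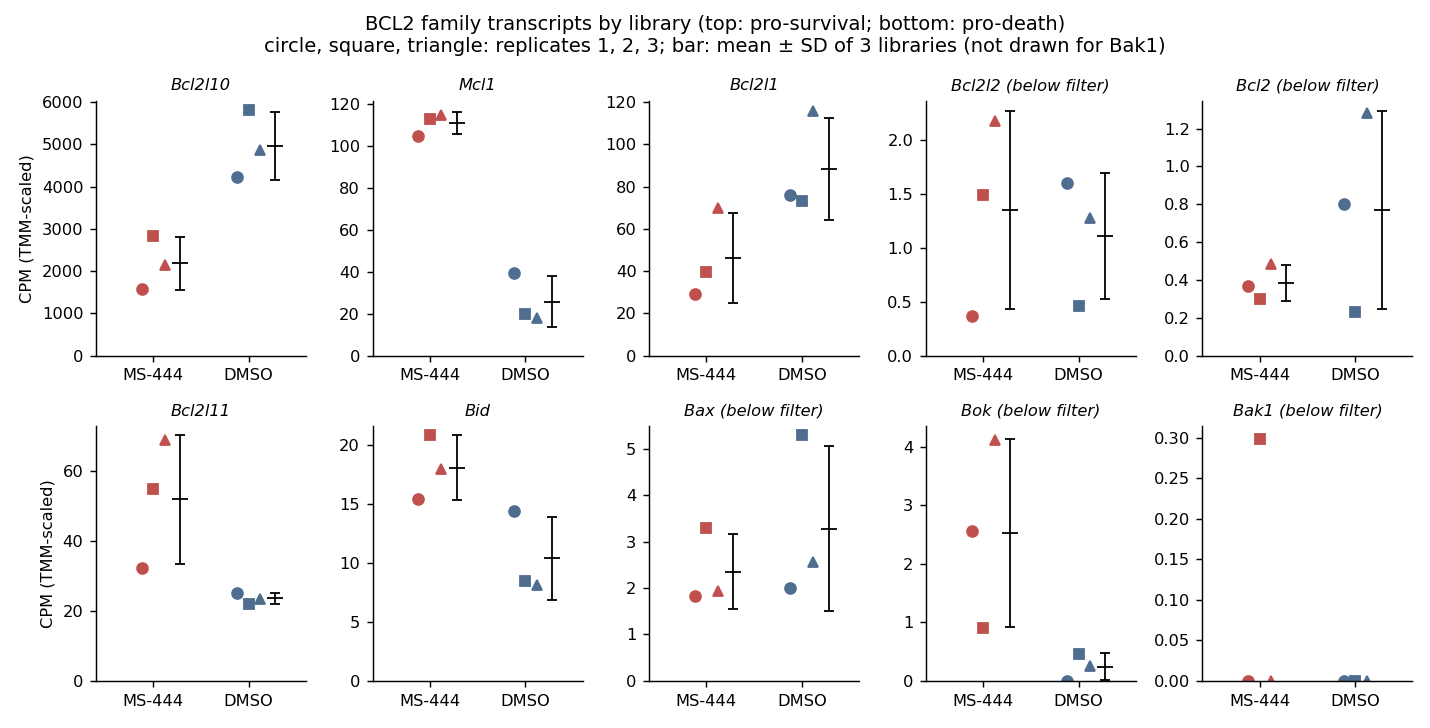
Level of each of the 10 BCL2 family transcripts in CPM after TMM scaling (y axis, a separate linear scale from 0 in each panel) in the 3 MS-444 libraries (red, left) and the 3 DMSO libraries (blue, right), with the mean and SD of each group as a bar (none for Bak1). The groups stand apart for Bcl2l10, Mcl1, Bcl2l1, Bcl2l11, Bid and Bok, and Bcl2, Bcl2l2, Bax, Bok and Bak1 lie at a few CPM or less.

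Mcl1 (ENSMUSG00000038612, chromosome 3) encodes a short-lived pro-survival protein that binds BIM and BAK. Its level was 105, 113 and 115 CPM in MS-444 replicates 1, 2 and 3, and 39.6, 19.6 and 17.9 CPM in DMSO replicates 1, 2 and 3. The MS-444 libraries lay close together and all above the DMSO libraries, among which replicate 1 was about double the others. Mcl1 averaged 111 ± 5.36 CPM with MS-444 and 25.7 ± 12.1 CPM with DMSO (SD, n = 3 each), and rose by 2.12 on the log2 scale (SE 0.34, 4.36-fold, edgeR adjusted p = 0.0044). It was called in each of 17 alternative settings, at 1.87 to 2.50, with the highest value without DMSO replicate 1. The deposited counts are per gene, so the short splice form of Mcl1, which encodes a pro-death protein in human cells, was not told apart from the long one.

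AU-rich stretches with the pentamer ATTTA are a classical element of unstable mRNAs and among the sequences that HuR is known to bind, and in human cells MCL1 and BCL2 mRNAs have been described as bound by HuR. For that reason the pentamer was counted on the mRNA strand in the longest annotated 3′ untranslated region of each member, with overlapping matches counted separately. Mcl1 held 8 in 2353 bases, Bcl2 15 in 5086, Bcl2l11 6 in 4218, Bcl2l2 2 in 3177, Bcl2l1 1 in 1477, Bok 1 in 602 and Bcl2l10 1 in 499, and Bid, Bak1 and Bax held 0. At least 1 pentamer is present in 93.4% of the 3′ regions within 20% of the length of that of Mcl1, and 8 or more in 16.6% of them. For the regions of like length, at least 1 is present in 99.3% for Bcl2, 98.3% for Bcl2l11, 84.1% for Bcl2l1 and 50.5% for Bcl2l10. The windows of 30 bases with most pentamers follow for Bcl2 and for each tested member that holds one, from GENCODE M21 transcripts of the reference strain (GRCm38), 5′ to 3′ on the mRNA strand, with the pentamer in capitals:
Mcl1: ATTTAtccttgatcatagtttgcttATTTA
Bcl2: tATTTAggaaaaaaaagATTTATTTATTTA
Bcl2l11: tgtatATTTAttttccgcttATTTAaatgt
Bcl2l1: taagcgtgtctgtATTTAtgtgtgaggagc
Bcl2l10: taaggacttctgaATTTAtaatactcccct
The Bcl2 window holds 4 pentamers, of which 3 overlap in a row, and those of Mcl1 and Bcl2l11 hold 2 each. These windows are matches of letters, and no measurement here shows that a protein binds them. Set beside the calls, Mcl1 (8 pentamers) and Bcl2l11 (6) were higher with MS-444 and Bcl2l10 (1) was lower, while Bcl2l1 (1) and Bid (0) did not pass. These counts are not adjusted for length. Regions of like length held a median of 4 for Mcl1, 7 for Bcl2l11, 1 for Bcl2l10, 2 for Bcl2l1 and 2 for Bid. Over all tested genes with an annotated 3′ region, the median log2 fold change was -0.09 among 1289 with 8 or more pentamers, -0.06 among 6270 with 1 to 7 and 0.22 among 2841 with 0. In that order, 10.6%, 12.3% and 19.6% were called higher, and 9.8%, 13.1% and 9.4% lower. Whether the pentamers bear on any of these values was not tested.

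Bcl2l10 (ENSMUSG00000032191, chromosome 9) was by far the most abundant member. It stood at 1579, 2833 and 2145 CPM in the MS-444 libraries and at 4216, 5812 and 4877 CPM in the DMSO libraries, with no overlap between groups. The means were 2185 ± 628 CPM with MS-444 and 4968 ± 802 CPM with DMSO (SD, n = 3 each). Bcl2l10 fell by 1.18 on the log2 scale (SE 0.26, edgeR adjusted p = 0.011). The call was lost without MS-444 replicate 3 (-1.18, adjusted p = 0.052) and after quantile normalization with limma (-0.69, adjusted p = 0.079), and it held in the other 15 settings. Of 7 markers of oocyte-derived RNA, 4 fell as well (Padi6, Bmp15, Nlrp5 and Gdf9) and 0 rose by edgeR, with 5 lower and 0 higher by DESeq2 and at an unadjusted p under 0.05 by edgeR. The list had a median of -1.05, beside 0.02 over all genes tested, and summed to 2016 to 2339 CPM with MS-444 and 3919 to 6258 CPM with DMSO. The part of this shift in the value of Bcl2l10 was not tested. In pooled embryos, fewer embryos or cells that carry a transcript and less of it per cell cannot be told apart.

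Bcl2l1 (ENSMUSG00000007659, chromosome 2) encodes BCL-XL, a stable pro-survival protein. Its level was 29.3, 39.4 and 70.1 CPM in the MS-444 libraries and 76.0, 73.0 and 116 CPM in the DMSO libraries. The groups did not overlap, but MS-444 replicate 3 came within 3 CPM of the lowest DMSO library. The means were 46.3 ± 21.3 CPM with MS-444 and 88.4 ± 24.2 CPM with DMSO (SD, n = 3 each), and the log2 fold change of -0.93 (SE 0.36) did not pass the test (edgeR adjusted p = 0.079). It did pass without MS-444 replicate 3 (-1.37, adjusted p = 0.048), with DESeq2 (-0.96, adjusted p = 0.044), with the correction for GC content and transcript length (-1.15, adjusted p = 0.016), with no filter on low counts (-0.99, adjusted p = 0.026) and with a replicate block (-0.99, adjusted p = 0.023). Splice forms of Bcl2l1 were not told apart.

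Bcl2 (ENSMUSG00000057329, chromosome 1) and Bcl2l2 (ENSMUSG00000089682, chromosome 14), which encode the founding member of the family and BCL-W, were close to the limit of detection. Bcl2 had 1, 1 and 2 counts in the MS-444 libraries and 2, 1 and 5 in the DMSO libraries. Bcl2l2 had 1, 5 and 9 counts with MS-444 and 4, 2 and 5 with DMSO. The ratio of summed counts after scaling was 0.528 for Bcl2 (95% interval 0.116 to 1.97 from counting error) and 1.44 for Bcl2l2 (0.618 to 3.46), so no difference was detectable at this depth. Without MS-444 replicate 3 the log2 ratio of Bcl2l2 was -0.05 in place of 0.53, and without DMSO replicate 3 that of Bcl2 was -0.16 in place of -0.92. Exons of both genes share bases with another annotated gene (558 of Bcl2 with D630008O14Rik on the opposite strand, 594 of Bcl2l2 with Gm20521 on the same strand), and how such reads were counted is not stated in the labels.

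On the pro-death side, Bcl2l11 (ENSMUSG00000027381, chromosome 2) encodes BIM, a BH3-only protein that binds pro-survival members broadly. Its level was 32.2, 54.7 and 68.7 CPM in the MS-444 libraries and 25.2, 22.1 and 23.5 CPM in the DMSO libraries. The DMSO libraries agreed closely, whereas the MS-444 libraries spread widely above them. Bcl2l11 averaged 51.9 ± 18.4 CPM with MS-444 and 23.6 ± 1.55 CPM with DMSO (SD, n = 3 each) and rose by 1.14 on the log2 scale (SE 0.32, 2.21-fold, edgeR adjusted p = 0.028). Leaving out a library ended the call in 4 of 6 cases, namely MS-444 replicate 3 (0.88, adjusted p = 0.13), MS-444 replicate 2 (1.04, 0.11), DMSO replicate 2 (1.03, 0.08) and DMSO replicate 3 (1.09, 0.074). It held in the other 13 settings.

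Bid (ENSMUSG00000004446, chromosome 6), whose protein is cut by caspase-8 and then moves to mitochondria, was measured at 15.4, 20.9 and 18.0 CPM in the MS-444 libraries and at 14.4, 8.52 and 8.16 CPM in the DMSO libraries. All MS-444 values lay above the DMSO values, with 1 CPM between MS-444 replicate 1 and DMSO replicate 1. Bid averaged 18.1 ± 2.76 CPM with MS-444 and 10.4 ± 3.50 CPM with DMSO (SD, n = 3 each), and its log2 fold change of 0.82 (SE 0.36) did not pass (edgeR adjusted p = 0.11), except without DMSO replicate 1 (1.05, adjusted p = 0.049). Exons of Bid share 628 bases with those of Bcl2l13 on the opposite strand, so that without a known strand setting their reads cannot be told apart in that stretch. Bcl2l13 itself stood at 75.3 ± 10.8 CPM with MS-444 and 54.3 ± 4.61 CPM with DMSO (log2 0.47, SE 0.25, adjusted p = 0.19).

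The pore formers were rare transcripts. Bax (ENSMUSG00000003873, chromosome 7) had 5, 11 and 8 counts in the MS-444 libraries and 5, 23 and 10 in the DMSO libraries, and the groups overlapped. The ratio of its summed counts was 0.667 (95% interval 0.383 to 1.14 from counting error), and without DMSO replicate 2 the log2 ratio was 0.01 in place of -0.59. Exons of Bax share 192 bases with Gm45808 on the same strand. Bak1 (ENSMUSG00000057789, chromosome 17) had 1 count in MS-444 replicate 2 and 0 in the other 5 libraries. A count of 0 over the DMSO libraries allows up to 3 counts, or 0.279 CPM, from counting error. Bok (ENSMUSG00000026278, chromosome 1), a BAX relative best known from the ovary, had 7, 3 and 17 counts with MS-444 and 0, 2 and 1 with DMSO, with no overlap. Its summed counts of 27 and 3 gave a ratio of 9.50 (95% interval 2.92 to 48.9 from counting error). Bok did not pass the filter on low counts. Tested without that filter it was called (log2 3.03, SE 0.99, edgeR adjusted p = 0.023), and the summed log2 ratio ran from 2.56 without MS-444 replicate 3 to 4.09 without DMSO replicate 2. That call rests on the MS-444 libraries and is no independent sign of a difference. Adjusted p-values of the unfiltered edgeR fit are not on the scale of the reported one. Mcl1 had 1.8e-07 there in place of 0.0044, and Bid 0.27 in place of 0.11.

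Levels of different genes were compared per kilobase of exon. With MS-444 the order was Bcl2l10 (1791 ± 515 CPM per kb), Mcl1 (32.4 ± 1.57), Bcl2l1 (10.1 ± 4.63), Bcl2l11 (6.46 ± 2.29), Bid (5.09 ± 0.779), Bax (1.49 ± 0.514) and Bok (1.37 ± 0.878). Bcl2l1 stood above Bcl2l11 in all 3 of these libraries, whereas the order of Bcl2l11 and Bid, and that of Bax and Bok, varied between libraries. With DMSO it was Bcl2l10 (4072 ± 657 CPM per kb), Bcl2l1 (19.3 ± 5.28), Mcl1 (7.51 ± 3.53), Bcl2l11 (2.94 ± 0.193), Bid (2.92 ± 0.985) and Bax (2.08 ± 1.12), the last 3 of them in an order that varied between libraries, with Bok at 0.130 ± 0.125. Bcl2l2 followed at 0.302 ± 0.206 CPM per kb with MS-444 and 0.249 ± 0.132 with DMSO, Bcl2 at 0.0419 ± 0.0103 and 0.0839 ± 0.0572, and Bak1 at 0.0414 ± 0.0717 and 0 (SD, n = 3 each). Of the 11864 genes tested, 99.8% with MS-444 and 99.9% with DMSO lay below Bcl2l10 per kilobase, 85.2% and 57.8% below Mcl1, and 63.0% and 77.3% below Bcl2l1. If reads gather near one end of the cDNA, a level per length understates long genes, and this was not tested.

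The order of Mcl1 and Bcl2l1 was reversed between the groups. In counts of the same library, Mcl1 had 3.58, 2.86 and 1.64 times the counts of Bcl2l1 in MS-444 replicates 1, 2 and 3, and 0.521, 0.268 and 0.154 times in DMSO replicates 1, 2 and 3. Such a ratio does not depend on how libraries are scaled, and its log2 value averaged 1.35 ± 0.58 with MS-444 and -1.84 ± 0.88 with DMSO (SD, n = 3 each). This pair was chosen after its values were seen, so the difference is given without a test. Of the pro-survival level per kilobase outside Bcl2l10, Mcl1 made up 82.5%, 78.6% and 68.0% in the MS-444 libraries and 40.5%, 26.3% and 16.8% in the DMSO libraries. That level was 37.2, 41.9 and 49.5 CPM per kb with MS-444 and 28.6, 21.8 and 31.0 CPM per kb with DMSO, and Bcl2l1 made up 17.2%, 20.5% and 30.9% of it with MS-444 and 57.9%, 73.1% and 81.8% with DMSO. Bcl2l10 nevertheless held 97.2% to 98.2% of the summed level of all members grouped as pro-survival with MS-444 and 99.2% to 99.5% with DMSO. It is in that group by sequence family only, so that the sum with Bcl2l10 is no measure of protection. The summed level of the 5 pro-death members was 10.9, 15.4 and 17.1 CPM per kb in the MS-444 libraries and 8.46, 8.76 and 6.98 CPM per kb in the DMSO libraries, of which Bcl2l11 was 36.8%, 44.2% and 50.1% with MS-444 and 37.1%, 31.4% and 41.9% with DMSO. The sums did not overlap, whereas the shares of Bcl2l11 did.

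**Figure D2:**
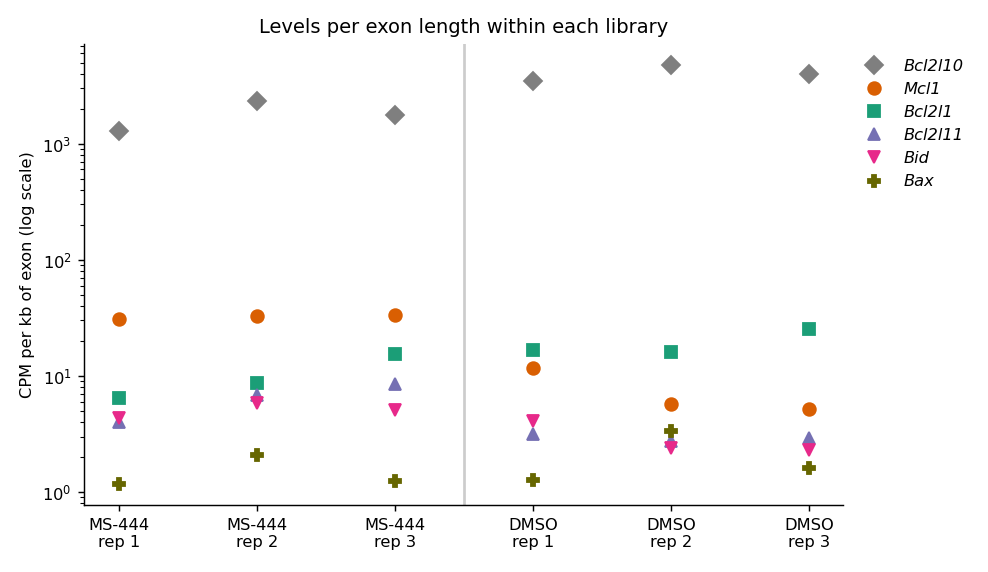
Levels of the 6 most abundant BCL2 family members with DMSO in CPM per kilobase of exon (y axis, log scale) in each library (x axis, MS-444 left of DMSO), 1 symbol per gene. Mcl1 lies above Bcl2l1 in the 3 MS-444 libraries and below it in the 3 DMSO libraries, and Bcl2l10 lies far above both in all 6.

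A pair of further ratios within libraries was tested. The log2 ratio of Mcl1 to Bcl2l10 counts was -3.91, -4.65 and -4.22 in the MS-444 libraries and -6.73, -8.21 and -8.08 in the DMSO libraries, a difference of 3.41 without overlap. The log2 ratio of Mcl1 to Bax was 5.70, 5.04 and 5.80 with MS-444 and 4.18, 1.86 and 2.75 with DMSO, a difference of 2.58 without overlap, although the few counts of Bax make single values uncertain. That difference came to 3.21 when DMSO replicate 1 was left out and to 2.05 when DMSO replicate 2 was. Both gave an exact permutation p of 0.1 (two-sided, also 0.1 when adjusted over the 2 ratios), the smallest that 3 against 3 libraries allow. The ratio of Mcl1 to Bcl2l11, 2 transcripts that both rose, differed less between the groups: it was 3.25, 2.06 and 1.67 in the MS-444 libraries and 1.57, 0.885 and 0.761 in the DMSO libraries. The ratio of Bcl2l1 to Bcl2l11 was 0.909, 0.721 and 1.02 with MS-444 and 3.02, 3.30 and 4.96 with DMSO. The last 2 ratios were added after the values were seen and were not tested. The 2 tested ratios also join members chosen with earlier results of these data known. Of these, Mcl1 and Bcl2l10 were themselves called in opposite directions.

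Of 17 other genes of the wider BCL2 family, 12 were in the table and 8 were tested. Only Bcl2l14 passed, and 0 fell, by edgeR and by DESeq2 (2 higher and 0 lower at an unadjusted p under 0.05 in edgeR). Bcl2l14, which encodes the BCL2 relative BCL-G, stood at 28.2, 18.5 and 14.8 CPM in the MS-444 libraries and at 6.80, 0.691 and 1.79 CPM in the DMSO libraries. It rose by 2.85 on the log2 scale (SE 0.65, edgeR adjusted p = 0.013), without overlap, and was called in all 17 alternative settings (2.26 to 3.97). With 17, 3 and 7 counts in the DMSO libraries, it passed the filter on low counts only through the MS-444 group. Its call, in the reported fit and in the alternatives, is therefore no independent sign of a difference. Pmaip1, which encodes NOXA, the BH3-only protein selective for MCL1, had 28.9, 13.7 and 21.4 CPM with MS-444 and 18.0, 5.06 and 7.91 CPM with DMSO (log2 1.08, SE 0.49, adjusted p = 0.12). The groups overlapped for Pmaip1, and it passed without DMSO replicate 1 (1.65, adjusted p = 0.023) and with a replicate block (1.17, adjusted p = 0.031). The member of this list with the most counts, the mitophagy receptor gene Bnip3l, had 259 ± 19.6 CPM with MS-444 and 323 ± 50.3 CPM with DMSO (log2 -0.32, adjusted p = 0.31). The BH3-only genes Bad, Bbc3 and Bmf stayed below the filter at 0 to 8 counts a library. The list had a median log2 fold change of 0.46, beside 0.02 over all genes tested. Bcl2a1a, Bcl2a1b, Bcl2a1c, Bcl2a1d and Hrk were not found by symbol in the count table.

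Of 15 tested genes for proteins of the mitochondrial membrane and for partners of the family, 3 rose, 3 fell and 9 did not pass (median log2 fold change 0.25). The risen genes were Bag1, which encodes a BCL2-binding co-chaperone (62.3 ± 7.83 CPM with MS-444 and 22.7 ± 6.45 CPM with DMSO, log2 1.47, edgeR adjusted p = 0.0087), Mtch2, whose protein is a mitochondrial receptor for BID (39.0 ± 7.39 and 17.7 ± 9.14 CPM, log2 1.15, adjusted p = 0.049), and Endog, a mitochondrial nuclease gene with 12, 17 and 35 counts with MS-444 and 0, 9 and 7 with DMSO (log2 2.08, adjusted p = 0.046). Endog passed the filter on low counts only through the MS-444 group, so that its call is no independent sign of a difference. The fallen genes were Tmbim6, which encodes BAX inhibitor 1 of the endoplasmic reticulum (84.3 ± 13.4 CPM with MS-444 and 199.9 ± 68.6 CPM with DMSO, log2 -1.25, adjusted p = 0.016), the outer membrane channel gene Vdac3 (177 ± 6.66 and 402 ± 89.2 CPM, log2 -1.18, adjusted p = 0.0089) and Dnm1l, which encodes the fission GTPase DRP1 and has the most counts of the list (263 ± 96.9 and 538 ± 145 CPM, log2 -1.03, adjusted p = 0.035). The calls of Bag1 and Vdac3 held in all 17 settings. That of Mtch2 was lost with median-ratio scaling (1.14, adjusted p = 0.052) and without any library but DMSO replicate 1 (0.84 to 1.25), and that of Endog without any of the 6 (1.57 to 2.46). Endog was also lost after quantile normalization (1.58, adjusted p = 0.074), with a prior count of 0.5 in limma (2.80, 0.061) and on correcting for GC content and length (1.35, 0.13), and it did not reach the filter of 10 CPM. The call of Dnm1l ended with library totals (-0.86) and on leaving out MS-444 replicate 2 (-1.01), MS-444 replicate 3 (-0.84) or DMSO replicate 3 (-0.84), and that of Tmbim6 without MS-444 replicate 3 (-1.32, adjusted p = 0.059). The apoptosome genes Apaf1 (log2 0.25, adjusted p = 0.5) and Cycs (log2 0.70, adjusted p = 0.29) did not pass.

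The third list held 12 genes for proteins that act on MCL1, BIM or BAD, all tested, of which 1 rose, 2 fell and 9 did not pass (median log2 fold change -0.34). The risen gene was Dynll2, whose light chain anchors BH3-only proteins to motor complexes (98.3 ± 24.4 CPM with MS-444 and 37.4 ± 5.61 CPM with DMSO, log2 1.39, edgeR adjusted p = 0.0091). The fallen ones were the 14-3-3 genes Ywhae (775 ± 42.9 CPM with MS-444 and 1405 ± 228 CPM with DMSO, log2 -0.86, adjusted p = 0.018) and Ywhaz (589.6 ± 98.4 and 1203 ± 262 CPM, log2 -1.03, adjusted p = 0.015), whose proteins hold phosphorylated BAD in the cytosol, and Ywhae has the most counts of the list. Without MS-444 replicate 2 these calls were lost for all 3 genes (1.17, -0.95 and -1.03), and those of the 14-3-3 genes also without MS-444 replicate 3 (-0.83 and -0.97) and after quantile normalization (-0.46 and -0.67). The ubiquitin ligase and deubiquitinase genes that set the half-life of MCL1 protein did not pass: Huwe1 had a log2 difference of -0.44 (adjusted p = 0.18), Usp9x -0.65 (0.16), Fbxw7 0.59 (0.36) and Btrc -1.15 (0.056). Btrc passed in 9 of 17 alternatives, among them those without DMSO replicate 1 (-1.32) and without MS-444 replicate 1 (-1.58). Foxo3, a transcription factor that activates Bcl2l11 in other cells, did not pass either (log2 -0.52, adjusted p = 0.11). Over the 3 lists 28.6% of 35 tested genes were called, beside 25.5% of all genes tested. The 10 called genes include Endog and Bcl2l14, admitted to the test by their MS-444 libraries. The count came down to 4 without MS-444 replicate 2 and to 4 without MS-444 replicate 3.

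**Figure D3:**
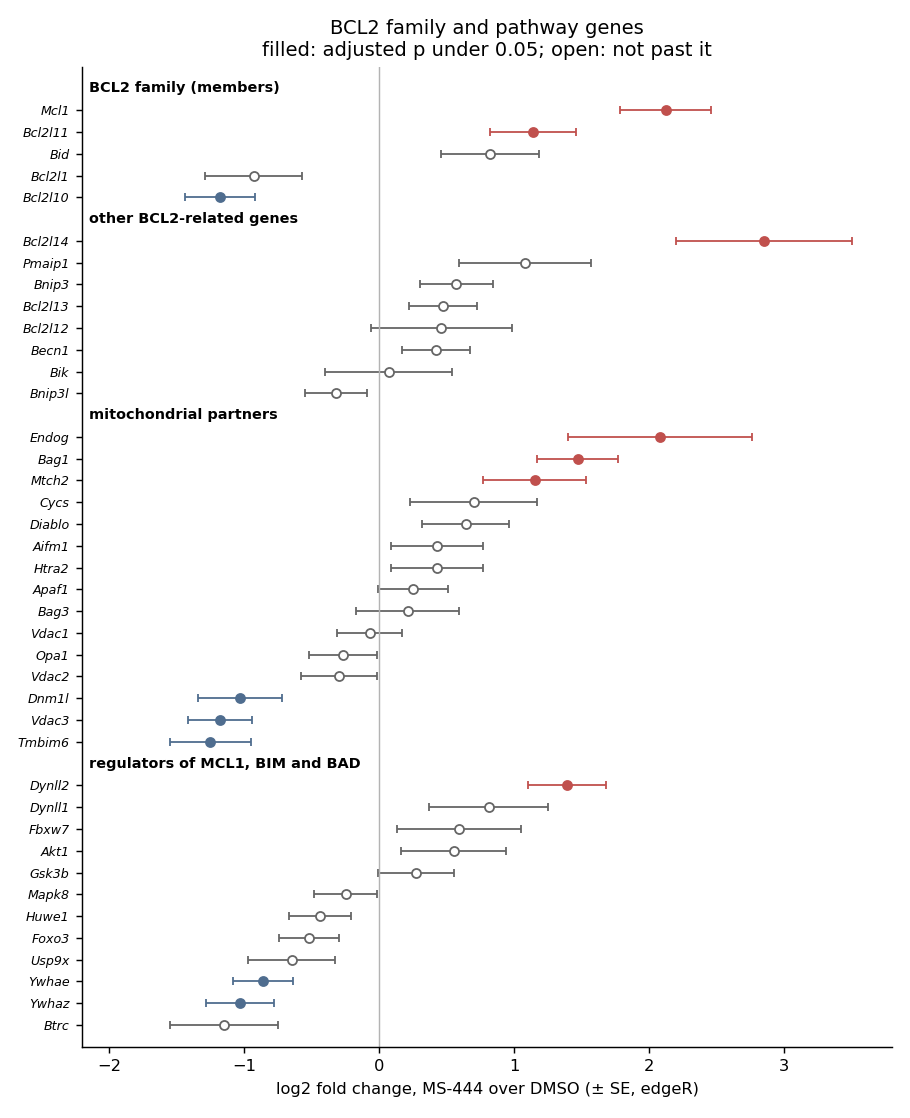
Log2 change of MS-444 over DMSO with its standard error (x axis, edgeR) for the 5 tested BCL2 family members and 35 tested genes of 3 lists around them (y axis). Filled symbols mark an adjusted p under 0.05, in red where higher and blue where lower. Each list holds fewer filled than open symbols, except the members with 3 of 5, beside 25.5% called over all genes tested.

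Elavl1, the gene of the reported target of MS-444, had 58.2, 45.1 and 51.0 CPM in the MS-444 libraries and 59.2, 61.7 and 99.0 CPM in the DMSO libraries, and its log2 fold change of -0.51 (SE 0.29) did not pass (edgeR adjusted p = 0.21). MS-444 is reported to act on the protein, so this level does not check the treatment. Patterns over the 6 libraries were compared by Euclidean distance of log2 CPM centred on the DMSO mean. The 5708 genes compared had a mean of at least 20 CPM over these libraries, with predicted or unnamed genes left out. The genes most like Mcl1 were Calcoco2 (distance 0.374), Purb (0.410), Smim13 (0.431), Guca1a (0.471) and L1td1 (0.472). Their log2 fold changes were 2.02 to 2.25. Those most like Bcl2l10 were Pdhx (0.293), Lhx8 (0.326), Car10 (0.327), Gnas (0.345) and C87198 (0.345), at -1.26 to -1.06. Fold changes close to those of Mcl1 and Bcl2l10 follow from this way of picking genes.

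**Figure D4:**
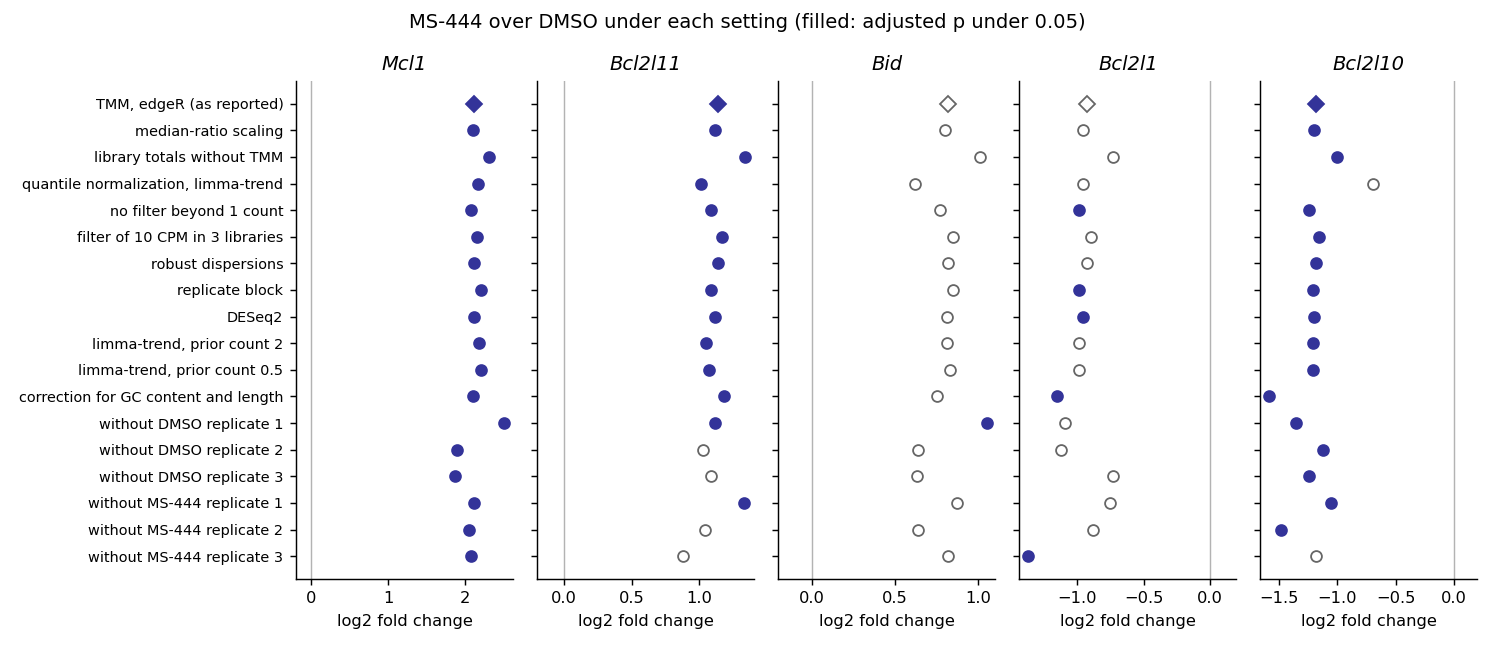
Log2 fold change of MS-444 over DMSO (x axis) for the 5 tested members under the reported fit (diamond, top) and 17 alternative settings (circles), 1 row per setting. Filled symbols mark an adjusted p under 0.05: Mcl1 is filled in all rows, Bcl2l10 in all but 2 and Bcl2l11 in all but 4, whereas Bcl2l1 and Bid are mostly open, and no value lies on the other side of 0.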

How the data were processed

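The authors deposited 1 table of raw counts for 29139 Ensembl genes in 6 libraries. The submitters' processing notes name HISAT2, Cufflinks 2.2.1 and mm9, with the counting program, annotation and strand setting not given in the sources used here. No column was left unused. GENCODE M21, on another build, gave symbols for 29127 genes and exon lengths, and no coordinates are printed. Members and lists were chosen with earlier results of these data known.

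Genes were filtered by edgeR's filterByExpr (minimum of 10 counts), libraries scaled by TMM (factors 0.933 to 1.106), and the groups compared with the quasi-likelihood test of edgeR, Benjamini-Hochberg adjusted over all 11864 genes tested. Fold changes are MS-444 over DMSO. Named were all members, the called genes and the gene with most counts of each of the 3 pathway lists, Elavl1 and the 5 nearest patterns; Pmaip1, Bcl2l13, the markers of cell type and stage, the untested BH3-only genes, the apoptosome genes, Foxo3 and the MCL1 turnover genes lie outside that rule and were picked after seeing their values. Ratios of counts used a pseudocount of 0.5 on the log2 scale. Intervals (exact binomial, 95%) cover counting error only and treat each read as an independent molecule. PCR reads are not independent molecules, so these intervals, and the bound given for Bak1, can be too narrow. No replicate pair agreed within sampling noise (chi-square per degree of freedom at least 6.88). Software was mgcv 1.9.3, DESeq2 1.42.0, limma 3.58.1 and edgeR 4.0.16 under R 4.3.3. Alternatives changed the scaling, filter, dispersion, tool, GC content and length correction, replicate block and libraries.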

Additional observations from a re-analysis of the deposited data

How the results depend on the processing

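All 5 tested members kept their direction in each of 17 alternatives. The count of called members was 3 of 5 tested. It was 4 under DESeq2, under a replicate block and once GC content and length were corrected for, where Bcl2l1 joined. After quantile normalization it was 2. With no filter on low counts it was 5 of 10 tested, where Bok and Bcl2l1 joined. In that fit 3704 of 29139 genes were called, against 3028 of 11864 in the reported one. Without 1 library the count of called members was 2 to 4, and in the remaining settings it stayed at 3. Bcl2l1 passed with no filter (-0.99), a replicate block (-0.99), DESeq2 (-0.96) and a correction for GC content and length (-1.15). It also passed without MS-444 replicate 3, with -1.37 to -0.73 without 1 library. Bcl2l10 was lost after quantile normalization (-0.69) and without MS-444 replicate 3 (-1.18), with -1.48 to -1.05 without 1 library. Bcl2l11 ran from 0.88 to 1.33 and Bid from 0.63 to 1.05 without 1 library. The call of Bcl2l11 was lost without replicate 2 or 3 of either group, and Bid passed only without DMSO replicate 1. The count of other family and pathway genes called was 4 to 11 without 1 library, against 10, and that of all genes 1171 to 3820, against 3028. The cause of these changes was not tested. With library totals the median of all genes moved to 0.20 from 0.02, and 71.2% of the calls were higher, against 56.3%, with Mcl1 at 2.31 and Bcl2l11 at 1.34. Corrected for GC content and length, 45.7% were higher. Deviations of same-numbered MS-444 and DMSO libraries had correlations of 0.05, 0.37 and -0.10 for replicates 1, 2 and 3. Those of differently numbered libraries ran from -0.46 to 0.36. Whether same-numbered libraries share an origin was not tested. The replicate block, which called 3405 genes and changed the call of Bcl2l1 and of no other member, rests on a shared number only. Depth limits Bcl2, Bcl2l2, Bax, Bok and Bak1.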
